A study of Mus musculus with 9 samples.

Results

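Arg1, Chil3, Mrc1, Cd163, Pf4, Il4ra, Lyve1 and Il10ra, genes of alternatively activated macrophages and of the macrophages at the borders of the brain, were followed in mouse brain after intracerebral haemorrhage (ICH), a bleed into the brain tissue. They were chosen by gene symbol and make up 8 of the 36346 rows of the deposited expression table. Brain RNA of C57BL/6 wild type mice was sequenced 72 h (day 3) after the procedure, with 3 mice in each of 3 groups. The sham group received a control treatment without haemorrhage, the ICH group had a haemorrhage, and the ICH+PTE group had a haemorrhage and pterostilbene (PTE), a plant stilbene related to resveratrol. The sources used here do not give the age or sex of the mice, the way the haemorrhage was made, the dose, route or vehicle of pterostilbene, or the brain region taken. Levels are in FPKM, fragments scaled for transcript length and for the size of the library, so that levels of different genes can be set side by side.

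Interleukin-4 and interleukin-13 bind receptors that share the chain encoded by Il4ra and act through the transcription factor STAT6. In mouse macrophages they induce Arg1, Chil3 and Mrc1, the usual markers of alternative activation. Interleukin-10 signals through a receptor of Il10ra and Il10rb to STAT3 and restrains inflammatory gene expression. Mrc1, Cd163, Lyve1 and Pf4 mark the perivascular and meningeal macrophages, which lie outside the brain tissue proper and which unlike resting microglia express these genes.

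The 250 bases upstream of the RefSeq start (build GRCm38.p6) are shown for Mrc1, Chil3 and Pf4, because these are the members whose upstream sequence holds the letters AGGAAGT. That is the core bound by PU.1, the factor that defines the macrophage lineage, and by other ETS factors. Sequence was at hand for 5 of the 8 members, and Cd163 and Il4ra held no match. Each sequence runs 5′ to 3′ on the gene's own strand, and the capitals mark the match, which is read as ACTTCCT because it lies on the opposite strand in all 3 genes.
Mrc1, chr2:14229164-14229413, plus strand: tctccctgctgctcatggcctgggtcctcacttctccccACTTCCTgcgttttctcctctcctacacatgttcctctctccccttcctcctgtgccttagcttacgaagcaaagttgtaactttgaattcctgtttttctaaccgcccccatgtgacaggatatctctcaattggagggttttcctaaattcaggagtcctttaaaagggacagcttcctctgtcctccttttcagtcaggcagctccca
Chil3, chr3:106167565-106167814, minus strand: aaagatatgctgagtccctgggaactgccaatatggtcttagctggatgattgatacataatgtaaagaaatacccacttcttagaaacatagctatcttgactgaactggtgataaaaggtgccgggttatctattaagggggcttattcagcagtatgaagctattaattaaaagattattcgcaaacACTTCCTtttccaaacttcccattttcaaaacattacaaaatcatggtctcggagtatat
Pf4, chr5:90772185-90772434, plus strand: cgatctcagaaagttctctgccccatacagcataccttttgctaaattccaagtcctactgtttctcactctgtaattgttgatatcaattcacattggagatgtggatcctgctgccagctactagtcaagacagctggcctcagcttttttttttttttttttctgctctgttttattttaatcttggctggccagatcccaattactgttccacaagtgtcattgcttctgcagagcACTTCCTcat

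The match lay at bases -211 to -205 from the start of Mrc1, at -60 to -54 in Chil3 and at -10 to -4 in Pf4. Among all 32851 mouse promoter windows of the same length, 7.69% held AGGAAGT on either strand. Windows of the STAT6 type, TTC and GAA 4 bases apart, made up 5.85% of all windows and none of the 5 read here. The STAT3 type, with 3 bases between, was found in 7.02% of windows and in Chil3 alone among the 5, at -172 to -164 as TTCTTAGAA, where it shares no base with the ETS match. The letters TTGC and CAA 2 bases apart (1.74% of windows) and the HIF and E-box type (ACGTG, 16.6%) had no match in the 5, both strands having been read for every motif. A match is a string of letters and not a measured binding site.

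The 3 groups separated along the first principal component, which held 71.6% of the variance of the log2 values. The ICH libraries lay at 62.3 to 82.6 on it, the ICH+PTE libraries at -32.2 to -3.7 and the sham libraries at -61 to -46.6. Mitochondrially encoded genes made up 13.6 to 16.7% of all FPKM in the ICH libraries, 21.7 to 22.9% in the sham libraries and 25.5 to 28.9% in the ICH+PTE libraries. A fit without these and the haemoglobin genes is given with the other scalings below, and why their share differed was not tested. Markers of neurons had sums of 505 to 553 FPKM (sham), 165 to 234 FPKM (ICH) and 375 to 553 FPKM (ICH+PTE), so the libraries hold brain RNA in every group. The 10 genes shared by macrophages and microglia had sums of 97.4 to 132 FPKM (sham), 1450 to 1860 FPKM (ICH) and 131 to 265 FPKM (ICH+PTE). In whole tissue a change in the number of macrophages and a change in RNA per cell cannot be told apart, and that holds for every difference given here.

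Of the 8 genes, 6 passed the filter on low values (at least 1 FPKM in at least 3 libraries). All 6 were higher in ICH than in sham, at a Benjamini-Hochberg adjusted p under 0.05 in limma, a call that 31.6% of all 15361 tested genes also received (63.8% were called in either direction, 32.1% lower). Arg1, Chil3, Mrc1 and Pf4 reached 1 FPKM in fewer than 3 sham libraries and so entered the test through the haemorrhage libraries, which makes a higher level there a condition of being tested. Nothing is therefore read from this count or from the other counts of members in this paragraph, which are given as descriptions. In ICH+PTE against ICH, Arg1, Pf4, Il4ra and Il10ra were lower, as were 30.5% of tested genes, while Chil3 and Mrc1 did not pass the threshold (56.9% of tested genes were called in either direction and 26.4% higher). These 4 were thus higher in ICH than in sham and lower in ICH+PTE than in ICH, which holds for 24.5% of tested genes. Against sham, the ICH+PTE group was higher in Arg1, Chil3, Mrc1, Pf4 and Il4ra, where 11.3% of tested genes were higher, 12.1% lower and 23.5% called in either direction. The 5 genes were higher than sham in both haemorrhage groups, as were 8.71% of tested genes, and Il10ra did not differ from sham beyond the threshold in ICH+PTE. Groups did not overlap, in either direction, in 73.5% of tested genes for ICH and sham, 64.8% for ICH+PTE and ICH and 38.6% for ICH+PTE and sham. Each group enters more than 1 of these comparisons, so the differences are given side by side and not as independent results.

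**Figure D1:**
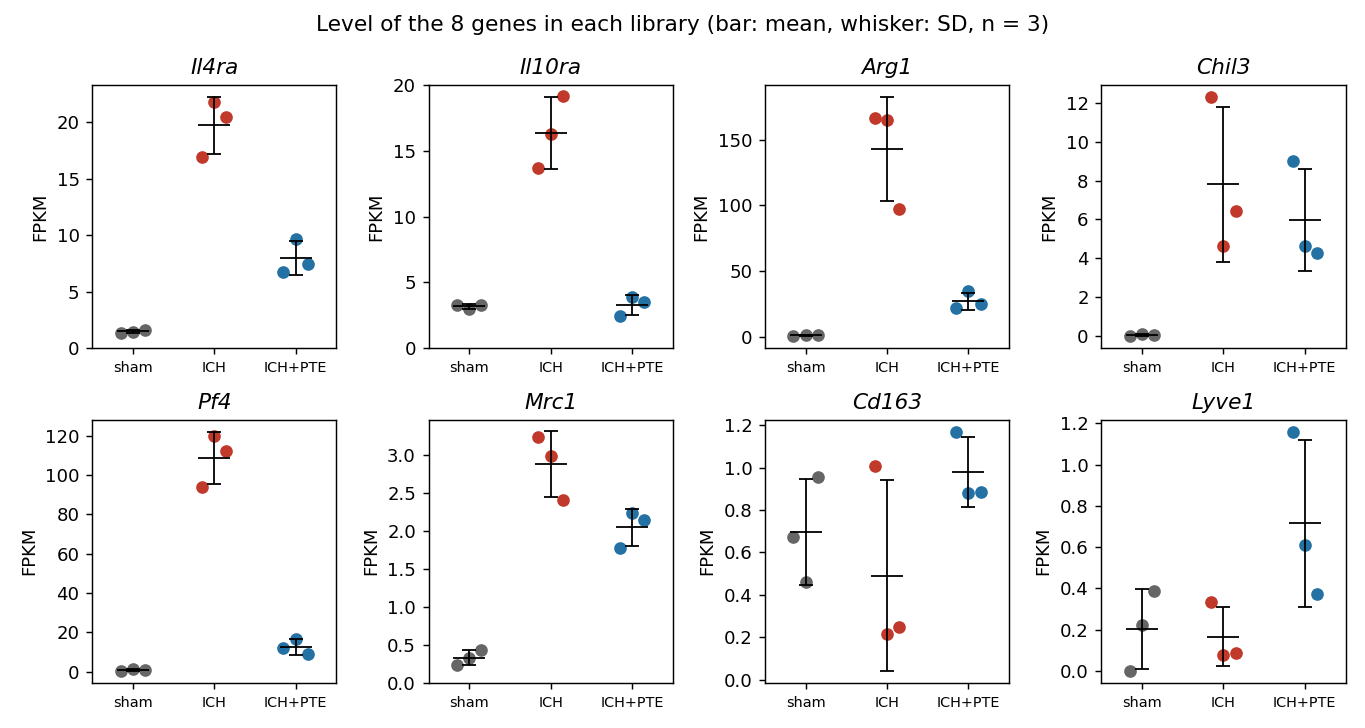
Level of each of the 8 genes in FPKM (vertical axis, linear) in the 3 sham, 3 ICH and 3 ICH+PTE libraries; points are single mice, the long bar is the mean and the whiskers are 1 SD. Arg1 and Pf4 reach 97.3 to 167 and 93.9 to 120 FPKM in ICH and fall to between 8.93 and 34.4 FPKM in ICH+PTE, while Chil3 overlaps between these groups and Cd163 and Lyve1 stay at or below 1.17 FPKM in every library.

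Il4ra (ENSMUSG00000030748, chr7:125552120-125579474, plus strand) encodes the chain through which both interleukin-4 and interleukin-13 signal. Its level was 1.38, 1.43 and 1.64 FPKM in the sham libraries, 16.9, 21.8 and 20.5 FPKM in ICH, and 6.74, 9.65 and 7.47 FPKM in ICH+PTE. The 3 groups did not overlap, with ICH highest and sham lowest. The ICH mean was 19.7 ± 2.53 FPKM (SD, n = 3) against 1.48 ± 0.141 FPKM (SD, n = 3) in sham, and the log2 difference was 3.35 ± 0.15 (SE; adjusted p = 3.98e-07, limma). In ICH+PTE the mean of 7.95 ± 1.52 FPKM (SD, n = 3) was 40.3% of the ICH mean. That is a log2 difference of -1.27 ± 0.15 from ICH (adjusted p = 8.59e-05) and of 2.08 ± 0.15 from sham (adjusted p = 4.87e-05).

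Il10ra (ENSMUSG00000032089, chr9:45253837-45269149, minus strand), the ligand-binding chain of the interleukin-10 receptor, had the highest sham level of the 8 genes. Its values were 3.28, 2.98 and 3.26 FPKM in sham, 13.7, 16.3 and 19.2 FPKM in ICH, and 2.45, 3.89 and 3.49 FPKM in ICH+PTE. All 3 ICH libraries stood above the rest, and the sham and ICH+PTE libraries overlapped. The log2 difference was 2.19 ± 0.16 for ICH against sham (SE; adjusted p = 3.68e-06, limma) and -2.17 ± 0.16 for ICH+PTE against ICH (adjusted p = 1.1e-05). Between ICH+PTE and sham it differed by 0.02 on the log2 scale (95% interval -0.34 to 0.39, adjusted p = 0.934), which bounds but does not exclude a difference. The sign of that last value turned under 3 of the other scalings, which gave -0.02, -0.11 and -0.01, and without sham mouse 2 (-0.02), ICH+PTE mouse 2 (-0.10) or ICH+PTE mouse 3 (-0.03). A pseudogene and a microRNA gene lie inside Il10ra, and the labels describe a strand-marking library without saying whether strand was used in quantification.

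Arg1 (ENSMUSG00000019987, chr10:24915221-24927484, minus strand) encodes arginase 1, which turns arginine into ornithine and urea and competes for arginine with the nitric oxide synthase of inflammatory macrophages. In sham it was near or below the filter of 1 FPKM, at 0.326, 1.13 and 1.14 FPKM. It stood at 167, 165 and 97.3 FPKM in ICH, the highest level of the 8 genes, and at 21.5, 34.4 and 24.7 FPKM in ICH+PTE. No library of one group overlapped another group. The log2 difference of ICH from sham was 6.75 ± 0.30 (SE; adjusted p = 4.5e-07, limma), on the scale of log2(FPKM + 0.5), where the added 0.5 understates changes from so low a level. ICH+PTE differed from ICH by -2.38 ± 0.30 (adjusted p = 0.000143) and from sham by 4.37 ± 0.30 (adjusted p = 4.64e-05). Its mean of 26.8 ± 6.69 FPKM (SD, n = 3) was 18.8% of the ICH mean of 143 ± 39.7 FPKM (SD, n = 3).

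Chil3 (ENSMUSG00000040809, chr3:106147554-106167564, minus strand) encodes the chitinase-like lectin Ym1, which is secreted by alternatively activated macrophages and is also made by mouse neutrophils. Chil3 was listed at 0, 0.109 and 0.0638 FPKM in sham. The ICH libraries had 12.3, 4.64 and 6.45 FPKM and the ICH+PTE libraries 8.99, 4.65 and 4.27 FPKM. The haemorrhage groups overlapped each other and both lay above every sham library, and in each of them mouse 1 was the highest. Chil3 rose by 3.79 ± 0.33 (SE, log2) from sham to ICH (adjusted p = 9.56e-06, limma) and was 3.47 ± 0.33 above sham in ICH+PTE (adjusted p = 0.000193). The difference of ICH+PTE from ICH was -0.33 ± 0.33 (95% interval -1.07 to 0.42, adjusted p = 0.427); the interval reaches from a marked decline to a small rise. Without ICH mouse 1 that difference was 0.04. Reads of Chil3 are not all unique to it: 438 of its 1490 windows of 50 bases (29.4%) also occur in transcripts of Chil4 or the pseudogene Gm6522, and the Chil3 and Chil4 transcripts match at 94.4% of 1538 aligned bases. Chil4 itself was at 0.11 FPKM or less in every library.

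Mrc1 (ENSMUSG00000026712, chr2:14229392-14332057, plus strand), the mannose receptor CD206, is an endocytic lectin that is both a target of interleukin-4 and a marker of border macrophages. Its values were 0.238, 0.329 and 0.427 FPKM in sham, 3.24, 2.99 and 2.4 FPKM in ICH, and 1.77, 2.23 and 2.14 FPKM in ICH+PTE. The groups did not overlap, but the lowest ICH library and the highest ICH+PTE library lay close together. The rise from sham to ICH was 2.02 ± 0.16 (SE, log2; adjusted p = 4.82e-06, limma) and that from sham to ICH+PTE 1.62 ± 0.16 (adjusted p = 0.000206). ICH+PTE differed from ICH by -0.40 ± 0.16 (95% interval -0.76 to -0.05, adjusted p = 0.0505), just outside the threshold. This call turns on the processing: it was made with a pseudocount of 1 (-0.35, adjusted p = 0.0363), without the mean-variance trend (adjusted p = 0.0304), without sham mouse 1 (adjusted p = 0.0457) and without ICH mouse 3 (-0.51, adjusted p = 0.0392).

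Pf4 (ENSMUSG00000029373, chr5:90772435-90773383, plus strand) encodes the chemokine CXCL4, best known from platelet granules and also made by border macrophages. The sham libraries had 0.485, 1.19 and 0.66 FPKM, the ICH libraries 93.9, 120 and 112 FPKM, and the ICH+PTE libraries 12, 16.8 and 8.93 FPKM. All 3 groups were separate, and the ICH+PTE mean of 12.6 ± 3.99 FPKM (SD, n = 3) was 11.6% of the ICH mean of 109 ± 13.4 FPKM (SD, n = 3). The log2 differences were 6.45 ± 0.24 for ICH against sham (SE; adjusted p = 2.36e-07, limma), -3.10 ± 0.24 for ICH+PTE against ICH (adjusted p = 1.22e-05) and 3.35 ± 0.24 for ICH+PTE against sham (adjusted p = 5.19e-05). Its neighbour Ppbp, which encodes another platelet chemokine, had at most 0.365 FPKM in ICH and 1.01 FPKM in ICH+PTE. The 9 platelet markers measured had sums of 1.86 to 2.27 FPKM (sham), 2.46 to 4.37 FPKM (ICH) and 1.84 to 3.61 FPKM (ICH+PTE), and Gp1bb, the one that could be tested, was called in no comparison.

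Cd163 (ENSMUSG00000008845, chr6:124304656-124330527, plus strand), the scavenger receptor that takes up haemoglobin bound to haptoglobin, missed the filter. It was at 0.671, 0.462 and 0.957 FPKM in sham, 1.01, 0.213 and 0.25 FPKM in ICH, and 1.17, 0.882 and 0.883 FPKM in ICH+PTE. ICH mouse 1 stood about at the level of the ICH+PTE mice and the other 2 ICH mice below every other library. The log2 differences were -0.34 for ICH against sham, 0.66 for ICH+PTE against ICH and 0.32 for ICH+PTE against sham. An exact permutation test gave two-sided p of 0.5, 0.3 and 0.3 in the same order. Leaving out 1 library gave ranges of -0.69 to -0.15, 0.46 to 1.01 and 0.17 to 0.47, and without ICH mouse 1 the first 2 differences were -0.69 and 1.01. With 3 libraries against 3 the smallest p such a test can give is 0.1.

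Lyve1 (ENSMUSG00000030787, chr7:110850607-110863239, minus strand), a hyaluronan receptor of lymphatic endothelium and of a subset of border macrophages, also missed the filter. The table lists 0, 0.223 and 0.389 FPKM in sham, 0.333, 0.077 and 0.0883 FPKM in ICH, and 1.16, 0.611 and 0.373 FPKM in ICH+PTE. Every ICH+PTE library was above every ICH library, a separation that 64.8% of tested genes showed in one direction or the other, and the log2 difference was 0.84 (p = 0.1, exact permutation test, two-sided, the smallest it can give). The share was not counted for genes that missed the filter, such as Lyve1. ICH and sham differed by -0.06 (p = 0.9), which turned to 0.13, 0.03 and 0.02 without sham mouse 3, ICH mouse 2 and ICH mouse 3, and ICH+PTE and sham by 0.78 (p = 0.2) in the same exact test. Of the 6 lymphatic endothelium markers 3 were tested, and Flt4, one of these, was below 1 FPKM in every sham library. In ICH+PTE against ICH 1 was higher and 1 lower, beside 26.4% and 30.5% of all tested genes, which is not a result about these markers. The sums were 8.17 to 10.6 FPKM (sham), 30 to 36.1 FPKM (ICH) and 18.5 to 29.5 FPKM (ICH+PTE). Pdpn alone had 4.69 to 7.07, 25.4 to 31.5 and 12.7 to 22.9 FPKM of these. Ccl21a and Mmrn1 were at or below 0.407 and 0.042 FPKM in every library, so the sums do not stand for all the markers. The part of lymphatic vessels in the Lyve1 values was not tested.

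**Figure D2:**
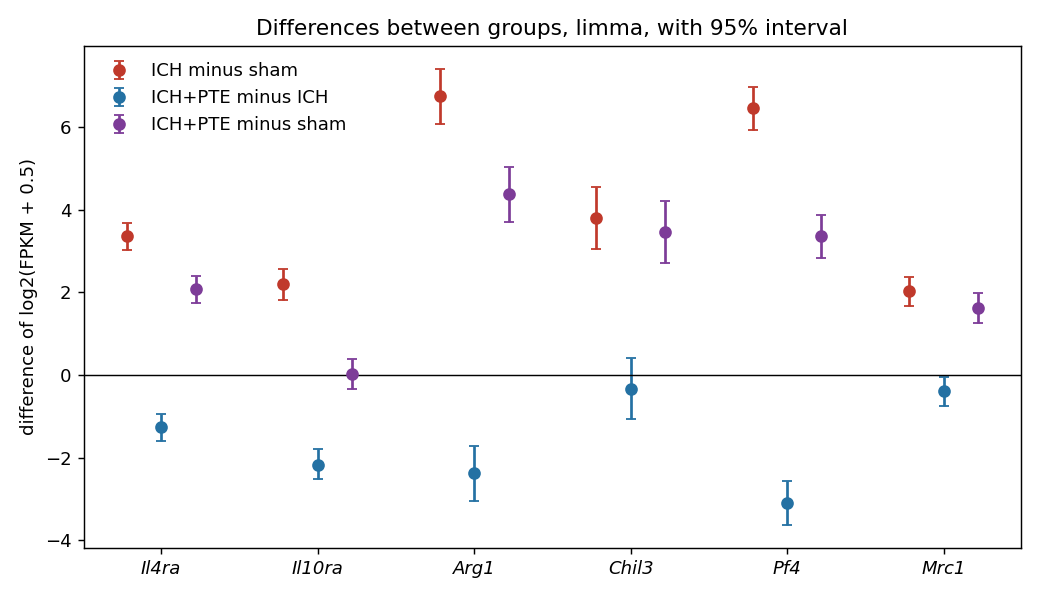
Differences between groups in log2(FPKM + 0.5) (vertical axis) for the 6 tested genes, with the limma 95% interval as bars; red is ICH minus sham, blue ICH+PTE minus ICH and purple ICH+PTE minus sham. The blue interval includes 0 for Chil3 (-1.07 to 0.42) and nearly reaches it for Mrc1 (-0.76 to -0.05), and the purple interval includes 0 for Il10ra (-0.34 to 0.39).

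The ICH+PTE level of the 6 tested genes can be read as a share of the ICH mean. Chil3 stood at 76.5% of its ICH mean, Mrc1 at 71.1%, Il4ra at 40.3%, Il10ra at 20%, Arg1 at 18.8% and Pf4 at 11.6%. Sham means were 0.737%, 11.5%, 7.52%, 19.4%, 0.602% and 0.715% of the ICH mean in the same order. Genes shared by macrophages and microglia stood at 42% (Itgam) down to 8.31% (Cd68) in ICH+PTE. These shares are descriptions, and differences between genes in them were not tested except as given next.

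**Figure D3:**
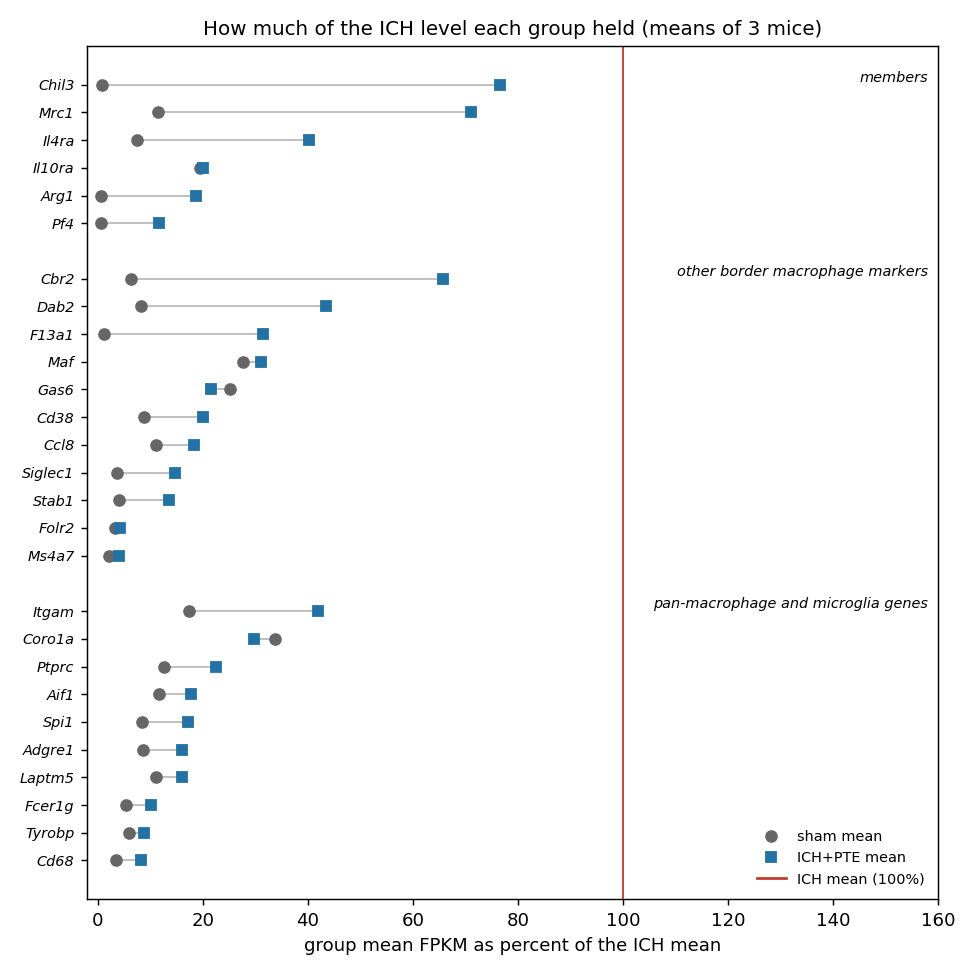
Sham mean (grey circles) and ICH+PTE mean (blue squares) of each gene as percent of its ICH mean FPKM (horizontal axis, n = 3 mice a group; red line, 100%), for the 6 tested members, 11 other border macrophage markers and 10 pan-macrophage and microglia genes. Chil3 and Mrc1 keep 76.5% and 71.1%, Cbr2 keeps 65.8%, and Folr2 and Ms4a7 stand at 4.18% and 4.02%, near their sham shares.

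Levels were also taken relative to a set of 10 genes shared by macrophages and microglia, by subtracting their mean log2 level in each library from every gene. This mean is not a measure of macrophage content, since the 10 genes differed among themselves, with log2 differences between ICH and sham of 1.53 to 4.83. Every gene also shares the noise of this mean, which is known from 3 mice a group. The fit treats the genes as separate evidence on the spread, so every relative adjusted p and interval, here and below, overstates certainty. That mean was 2.84 to 3.19 in sham, 5.96 to 6.37 in ICH, and 3.13, 4.14 and 3.66 in the 3 ICH+PTE libraries. Relative to it, Arg1 was 3.54 log2 units and Pf4 3.24 log2 units higher in ICH than in sham (adjusted p = 1.74e-10 and 1.27e-10, limma), a call that 0.631% of all tested genes received. Both genes entered the test through the haemorrhage libraries, so that share is given as background and nothing is read from it. Il4ra differed by 0.14 (95% interval -0.43 to 0.71, adjusted p = 0.614) and Chil3 by 0.59 (-0.26 to 1.44, adjusted p = 0.167), where Chil3 was called without ICH mouse 2 (0.97, adjusted p = 0.0184). Mrc1 and Il10ra were lower relative to the reference, by -1.18 and -1.01 (adjusted p = 0.000927 and 0.00118), as were 97.1% of all tested genes.

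In ICH+PTE against sham 1.55% of tested genes were relatively higher and 39% lower, and nothing is read from that share for Arg1, Chil3, Pf4 and Mrc1, which entered the test through the haemorrhage libraries. Arg1 was among them with 3.73 log2 units (adjusted p = 9.46e-08, limma), as were Chil3 with 2.83 (adjusted p = 6.53e-05), Pf4 with 2.71 (adjusted p = 1.59e-06) and Il4ra with 1.44 (adjusted p = 0.00104). Mrc1 was higher by 0.97 (adjusted p = 0.0214), a call that was lost without sham mouse 1 (adjusted p = 0.0805), sham mouse 2 (adjusted p = 0.0612) or ICH+PTE mouse 3 (adjusted p = 0.064). Il10ra differed by -0.62 (adjusted p = 0.0689), and was called lower without ICH+PTE mouse 1 (-0.71, adjusted p = 0.0141). For ICH+PTE against ICH, Chil3, Mrc1 and Il4ra were relatively higher by 2.24, 2.16 and 1.29 (adjusted p = 1.52e-05, 4.7e-07 and 9.59e-05), but 97.2% of all tested genes were too, and 0.41% were lower. Arg1 (0.18, 95% interval -0.49 to 0.86, adjusted p = 0.585), Il10ra (0.39, -0.17 to 0.96, adjusted p = 0.167) and Pf4 (-0.54, -1.14 to 0.07, adjusted p = 0.082) did not pass the threshold there. Leaving out ICH mouse 3 turned Arg1 to -0.11, and calls were made for Pf4 without ICH+PTE mouse 1 (-0.78, adjusted p = 0.00445) and for Il10ra without ICH+PTE mouse 2 (0.52, adjusted p = 0.0465).

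The choice of reference decides some of these values. With 8 homeostatic microglia genes as reference in place of the pan-macrophage genes, Mrc1 and Il10ra in ICH against sham turned to 0.71 and 0.88, Chil3 and Il4ra to 2.48 and 2.04, and Arg1 and Pf4 in ICH+PTE against ICH to -0.76 and -1.48. The microglia genes themselves were higher in ICH in 5 of 8 cases, beside 31.6% of all tested genes. In ICH+PTE 8 of 8 were lower than in ICH, beside 30.5%.

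**Figure D4:**
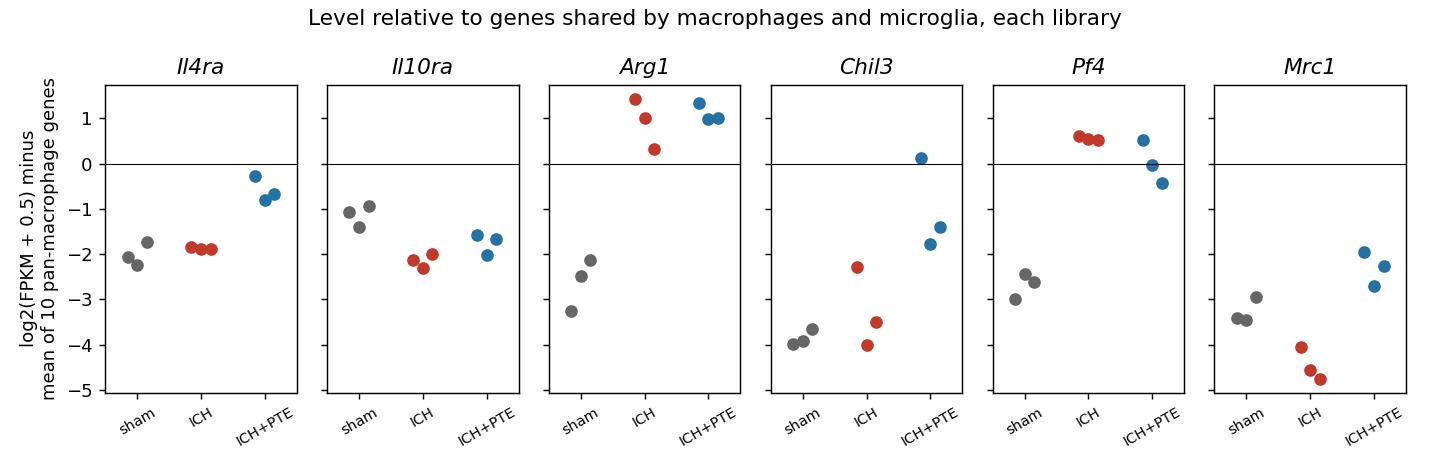
Level of the 6 tested genes in each library as log2(FPKM + 0.5) minus the mean of 10 pan-macrophage and microglia genes (vertical axis, log2 units); points are single mice, 3 a group. Arg1 lies at 0.33 to 1.43 in ICH and at 0.98 to 1.33 in ICH+PTE, against -3.25 to -2.13 in sham; Chil3 ICH mouse 1 (-2.28) stands above the other ICH mice, and Chil3 in all 3 ICH+PTE mice (-1.78 to 0.12) above all ICH mice.

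Of the ligands, Il13 was listed at 0 in 8 of 9 libraries, and Il10 was at most 0.18 FPKM. Il4 had 3.34 to 4.4 FPKM in sham and 2.01 to 2.89 FPKM in ICH, a decline of -0.57 ± 0.18 (SE, log2; adjusted p = 0.0163, limma), and its difference between ICH+PTE and ICH did not pass the threshold (0.28, adjusted p = 0.201). The partner chains of the receptors were higher in ICH. Il2rg, the common gamma chain of the type I interleukin-4 receptor, was higher by 3.04 and Il13ra1, the partner of Il4ra in the type II receptor, by 1.61 (adjusted p = 5.83e-06 and 1.79e-05). With 0.708, 0.684 and 1.08 FPKM in sham, Il2rg entered the test through the haemorrhage libraries, so nothing is read from its call against sham. Il10rb, the shared second chain of the interleukin-10 receptor, was higher by 2.79 (adjusted p = 2.94e-06). In ICH+PTE against ICH they were lower, Il2rg by -1.79, Il13ra1 by -0.46 and Il10rb by -2.17 (adjusted p = 0.000234, 0.0288 and 2.74e-05). The decoy receptor Il13ra2 reached at most 0.176 FPKM.

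Among 12 genes of the interleukin-4 and interleukin-13 system, Il4ra included, 9 were tested. ICH against sham gave 6 higher and 1 lower (31.6% and 32.1% of all tested genes), with a median log2 difference of 1.61 beside -0.02 for all tested genes. Il2rg, among those called higher, reached 1 FPKM in fewer than 3 sham libraries and so entered the test through the haemorrhage libraries. Nothing is read from that count or its median. For ICH+PTE against ICH 1 was higher and 6 lower (26.4% and 30.5% of all tested genes), with a median of -0.88 beside -0.02. Stat6, through whose product the receptor acts, was higher by 1.91 in ICH and lower by -1.61 in ICH+PTE against ICH (adjusted p = 2.41e-05 and 0.000127), and differed from sham in ICH+PTE by 0.30 (adjusted p = 0.298). Irs2, an adaptor that links the interleukin-4 receptor to growth signalling, was the gene that was higher in ICH+PTE than in ICH (0.86, adjusted p = 0.00209).

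The interleukin-10 system, Il10ra included, had 9 of 11 genes tested. In ICH against sham 8 were higher and none lower (median 1.68), beside 31.6% and 32.1% of all tested genes. Socs3 and Bcl3 reached 1 FPKM in fewer than 3 sham libraries and so entered the test through the haemorrhage libraries. Nothing is read from that count or its median. In ICH+PTE against ICH none was higher and 6 were lower (median -0.76), beside 26.4% and 30.5%. Stat3 was at 14.2 ± 0.867 FPKM (SD, n = 3) in ICH and 14.5 ± 0.657 FPKM (SD, n = 3) in ICH+PTE, a log2 difference of 0.02 (95% interval -0.22 to 0.27). Socs3, the feedback inhibitor that STAT3 induces, was 3.11 higher in ICH than in sham (adjusted p = 1.04e-05) and still 2.67 higher than sham in ICH+PTE (adjusted p = 0.000273), and its difference between the 2 haemorrhage groups was -0.45 (95% interval -1.07 to 0.17, adjusted p = 0.193). STAT3 also serves interleukin-6 and related cytokines, so these genes do not report on interleukin-10 alone.

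Of 18 other genes of alternative activation, 7 were tested. In ICH against sham 4 were higher and none lower, beside 31.6% and 32.1% of all tested genes, and in ICH+PTE against ICH 1 was higher and 3 lower, beside 26.4% and 30.5%. Clec10a and Cd200r1, which are among those called, were below 1 FPKM in every sham and ICH+PTE library and so were tested because they were high in ICH; nothing is read from these counts. Tgm2, a transglutaminase induced by interleukin-4 in macrophages of mouse and human, changed most: 3.5, 3.47 and 6.28 FPKM in sham, 55.6, 71.6 and 65.2 FPKM in ICH, and 9.78, 19.5 and 12.1 FPKM in ICH+PTE. The log2 differences of Tgm2 were 3.76 for ICH against sham and -2.23 for ICH+PTE against ICH (adjusted p = 2.49e-06 and 9.44e-05). Clec10a, a galactose-type lectin of macrophages and dendritic cells, and Cd200r1, an inhibitory receptor, had the same order of groups, at 2.06 and 2.71 for ICH against sham and -1.43 and -1.91 for ICH+PTE against ICH (adjusted p = 0.000403 and 4.27e-05 in the latter). The chemokine Ccl17, which attracts T cells, was higher in ICH+PTE than in ICH by 1.5 (adjusted p = 0.0352), with 6.7, 1.37 and 1.39 FPKM against 1.01, 0.171 and 0.611 FPKM, and the first ICH+PTE library stood apart. Ccl17 met the filter only with its ICH+PTE libraries, so it was tested because it was high there and nothing is read from that call.

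Of 13 genes of arginine and polyamine metabolism around Arg1, 11 were tested, with 4 higher and 3 lower in ICH (median -0.06) and 3 in each direction in ICH+PTE against ICH (median -0.11). These counts lie near the shares of all tested genes, 31.6% higher and 32.1% lower in the first comparison and 26.4% and 30.5% in the second, and are not a result about this group. Sms, spermine synthase, changed most in both comparisons, by -1.02 and 0.78 (adjusted p = 1.65e-05 and 0.000147). Arg2, the mitochondrial arginase, ranged over 3.62 to 3.97 FPKM among sham, 2.44 to 3.68 FPKM among ICH and 1.89 to 3.13 FPKM among ICH+PTE libraries. Nos2, the inducible nitric oxide synthase that uses the same substrate, missed the filter; its highest values were 0.18 FPKM among sham, 0.882 FPKM among ICH and 0.494 FPKM among ICH+PTE libraries.

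In the family of Chil3, 2 of 6 other chitinases and chitinase-like genes were tested. Chil1, which encodes a secreted lectin made by reactive astrocytes and macrophages, had 3.55, 4.64 and 3.56 FPKM in sham, 31.3, 42.9 and 23.7 FPKM in ICH, and 37.8, 76.5 and 65.9 FPKM in ICH+PTE. It was 2.88 higher in ICH than in sham (adjusted p = 1.3e-05) and 0.85 higher again in ICH+PTE than in ICH (adjusted p = 0.0203), although these 2 groups overlapped. Chia1, an active chitinase, was lower in ICH by -0.71 (adjusted p = 0.00468) and higher in ICH+PTE than in ICH by 0.77 (adjusted p = 0.00377).

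Other markers of border macrophages were 16 in number and 11 were tested. In ICH all 11 tested were higher than in sham, beside 31.6% of all tested genes, and in ICH+PTE 10 were lower than in ICH, beside 30.5%. Ms4a7, Cbr2, F13a1, Folr2, Siglec1 and Ccl8 were below 1 FPKM in every sham library, and Ms4a7 and Folr2 in every ICH+PTE library too, so they were tested because they were high after haemorrhage and nothing is read from these counts. F13a1, coagulation factor XIII A, rose most, with 0.18 to 0.28 FPKM (sham), 17.4 to 19.3 FPKM (ICH) and 3.86 to 7.76 FPKM (ICH+PTE), a log2 difference of 4.69 between ICH and sham (adjusted p = 3.75e-07). Ms4a7, a membrane protein of border and infiltrating macrophages, fell most between ICH and ICH+PTE, from 10.6, 14.2 and 14.9 FPKM to 0.184, 0.796 and 0.618 FPKM, a log2 difference of -3.77 ± 0.24 (SE; adjusted p = 5.83e-06). Folr2, the folate receptor of resident border macrophages, did likewise (-3.75, adjusted p = 1.04e-05), and neither differed from sham in ICH+PTE beyond the threshold (0.38 and 0.18, adjusted p = 0.282 and 0.667). Against sham, F13a1, Dab2 and Cbr2 were higher in ICH+PTE by 3.06, 2.07 and 2.32 (adjusted p = 3.87e-05, 0.000462 and 0.0016), and Cbr2 was the marker not called lower in ICH+PTE than in ICH (-0.67, adjusted p = 0.114).

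Markers of other cells moved too, and their part in the members' values was not tested. The 8 markers of infiltrating monocytes summed to 11.7 to 14.8, 94 to 140 and 28 to 48 FPKM in sham, ICH and ICH+PTE; 4 of the 7 tested were below 1 FPKM in every sham library, so no count of calls is given. The 12 neutrophil markers summed to 1.06 to 1.66, 22.6 to 35.2 and 15.9 to 33.3 FPKM, with Ly6g, a defining neutrophil gene, at 0 in all sham and ICH libraries and at most 0.0614 FPKM in ICH+PTE. The 4 tested neutrophil markers, S100a8, S100a9, Mmp8 and Mmp9, were each below 1 FPKM in every sham library and were tested only through the haemorrhage libraries. The 8 blood endothelium markers summed to 35.3 to 50.5, 127 to 139 and 70.2 to 94.2 FPKM, with 7 of 8 higher in ICH (31.6% of all tested genes) and 5 of 8 lower in ICH+PTE than in ICH (30.5%). Kdr and Vwf reached 1 FPKM in fewer than 3 sham libraries, so nothing is read from the count against sham. The 9 T and B cell markers summed to 7.2 to 10.2, 7.1 to 9.32 and 3.86 to 5.92 FPKM, and 1 of 3 tested, Cd79b, was lower in ICH+PTE than in ICH. Below 1 FPKM in every sham and ICH+PTE library, Cd79b was tested because it was high in ICH, so nothing is read from that call. The sums hide opposite changes, as mean Cd4 was 7.57 FPKM in sham and 3.15 FPKM in ICH (log2 difference -1.18, adjusted p = 0.00111, limma). Trac and Cd79b were higher in ICH than in sham by 0.99 and 1.72. Both were below 1 FPKM in every sham library, so nothing is read from their calls. None of 5 tested hepatocyte markers was called in any comparison, and the 8 markers summed to 32.6 to 79.6, 39.4 to 49 and 28.6 to 75.4 FPKM. The 12 markers of small intestine summed to 1.91 to 2.51, 2.81 to 4.78 and 6.32 to 7.99 FPKM, with the one tested, Lgals4, not called. Fabp2, Apoa4, Cdx2, Sis, Reg3b and Reg3g missed the filter, but every ICH+PTE library was above every ICH library. Such a separation, in either direction, was seen in 64.8% of tested genes, and its share among genes that missed the filter was not counted. Fabp2 was at 0 in sham, at most 0.122 FPKM in ICH and 0.975 to 1.68 FPKM in ICH+PTE. These groups overlapped for Vil1, Apob, Cdx1, Lgals4, Muc13 and Lct. The source of these values was not tested.

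For each tested member, genes with the most similar profiles were taken by the root mean square difference of their centred log2 values over the 9 libraries. Arg1 and Pf4 were each other's nearest gene at 0.55 log2 units, and Msr1, a scavenger receptor, was near to both (0.75 and 0.60). Arg1 was also near to Hmox1, the haem-degrading oxygenase (0.75), and Pf4 to the lectin gene Lgals3 (0.59). Chil3 lay near to Serpina3n (0.51) and Socs3 (0.56), and these differed between ICH+PTE and ICH by -0.10 and -0.45 on the log2 scale. Mrc1 lay nearest to Pgf (0.14), C1s1 (0.16) and Cep85 (0.18), Il4ra to Angptl4 (0.13), Ifi207 (0.14) and Tubb6 (0.18), and Il10ra to Ikbke (0.12), Glmp (0.13) and Arap1 (0.13). The measure is smaller for genes that vary less, and likeness says nothing of shared control.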

How the data were processed

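Polyadenylated RNA from the brains of 9 mice was sequenced in strand-marked libraries, per the labels' protocols. The submitters' processing notes name HISAT2 2.0.4, StringTie 1.3.4d and cutadapt 1.9. The deposited values are FPKM per gene, made by the authors. The sources used here name no genome build; 33201 of 36224 identifiable genes (91.7%), all 8 members among them, have the span of GENCODE M21 (GRCm38). Read depth is unknown: at most 12.8% of low single-exon values were whole multiples of 1 read (tolerance 0.02, 4.0% by chance). Summed FPKM ran from 269662 to 320371 per library.

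Of 36346 rows, 73 with a repeated symbol were dropped. Genes of at least 1 FPKM in at least 3 libraries (15361) were fitted as log2(FPKM + 0.5) in limma 3.58.1 (R 4.3.3), with 1 mean per group, a mean-variance trend and 6 residual degrees of freedom; tests were two-sided, Benjamini-Hochberg adjusted over all tested genes and called at 0.05. Cd163 and Lyve1 missed the filter and had exact permutation tests. The relative fit subtracted the mean log2 of 10 pan-macrophage genes. The pipeline was tested on simulated data. Promoters are RefSeq sequences; 50-base windows were compared with GENCODE M21 transcripts using Python 3.11.15. The members and gene lists were chosen with earlier results of these data known. All members are named; of each list, the gene that changed most in ICH against sham and in ICH+PTE against ICH, ligands and receptors, and further tested genes. Other pseudocounts, filters, scalings, spread models, a replicate block, another reference list and leaving out each library were tried. Likeness was measured for the 3 nearest genes of each tested member, and 1 of these is not reported here.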

Additional observations from a re-analysis of the deposited data

How the results depend on the processing

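For the 8 genes in 3 comparisons, 430 of 444 values under the alternatives kept their direction and their side of the threshold, as did 179 of 198 values relative to macrophage genes. No scaling changed the call of a member. The median of all genes moved from -0.02 to -0.31 for ICH against sham and to 0.24 for ICH+PTE against ICH when haemoglobin and mitochondrially encoded genes were removed, and from -0.03 to -0.16 for ICH+PTE against sham with TPM. The first of these scalings moved the share of higher calls from 49.6% to 33% and from 46.5% to 66.3% (6115 genes higher and 3108 lower in ICH+PTE against ICH, in place of 4060 and 4680), and TPM moved it from 48.3% to 30.6% (2940 genes lower in ICH+PTE than sham in place of 1865); the cause was not tested. Mrc1 in ICH+PTE against ICH was called at a pseudocount of 1 (-0.35) and without the trend (-0.40). Il10ra in ICH+PTE against sham reversed under quantile normalization (-0.02), TPM (-0.11) and removal of haemoglobin and mitochondrial genes (-0.01). With homeostatic microglia as the reference, ICH against sham became 2.48 for Chil3, 0.71 for Mrc1, 2.04 for Il4ra and 0.88 for Il10ra, ICH+PTE against ICH became -0.76 for Arg1, -1.48 for Pf4, 0.35 for Il4ra (adjusted p = 0.349, limma) and -0.55 for Il10ra, and ICH+PTE against sham became 0.33 for Il10ra.

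Same-numbered libraries had correlations of deviations of 0 to 0.26, so the numbers are taken as names only. With the replicate number as a block, the relative differences of Pf4 in ICH+PTE against ICH (-0.54, adjusted p = 0.04) and of Il10ra in ICH+PTE against sham (-0.62, adjusted p = 0.014) passed the threshold in limma, and no other call of a member changed. Leaving out 1 library gave ranges of -0.29 to 0.13 for Lyve1 in ICH against sham, -0.64 to 0.04 for Chil3 and -0.51 to -0.32 for Mrc1 in ICH+PTE against ICH, and -0.10 to 0.19 for Il10ra in ICH+PTE against sham. The count of genes in ICH+PTE against sham ran from 1023 to 1955 higher and from 1093 to 1759 lower, with 1023 higher and 1107 lower without sham mouse 3 and 1093 lower without sham mouse 2. Relative differences ran from 0.10 to 0.97 for Chil3 in ICH against sham, from -0.11 to 0.44 for Arg1, -0.78 to -0.31 for Pf4 and 0.30 to 0.52 for Il10ra in ICH+PTE against ICH, and from 0.80 to 1.17 for Mrc1 and -0.75 to -0.49 for Il10ra in ICH+PTE against sham. Without read counts no counting interval can be given, which limits Cd163, Lyve1 and the sham levels most.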

Other observations

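Retnla, which encodes the resistin-like molecule that is a classic product of mouse macrophages exposed to interleukin-4, missed the filter and was singled out after its values were seen. It was at 0.0861, 0.185 and 0.173 FPKM in sham and at 0, 0.365 and 0.169 FPKM in ICH. The ICH+PTE libraries had 3.86, 4.7 and 0.0739 FPKM, so that 2 of the 3 mice stood above every other library and the third was below most of them. Chil3 had no such split among the same 3 mice, at 8.99, 4.65 and 4.27 FPKM.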
